A study of Mus musculus with 4 samples.

Results

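The secreted and membrane-bound metalloproteinases that cut the extracellular matrix, and the tissue inhibitors that hold them in check, were examined in the open chromatin of 3T3-L1 cells. The members were all protein-coding genes of the annotation GENCODE M21 whose symbols are Mmp, Adamts or Adam followed by digits, or Timp1 to Timp4. That gave 78 genes of the 21829 protein-coding genes: 22 matrix metalloproteinases (MMP), 19 ADAMTS genes, 33 ADAM genes and 4 TIMP genes. Mmp1a carries another biotype than protein-coding in that annotation and was therefore no member.

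3T3-L1 is an immortalized line of mouse embryonic fibroblasts that can turn into adipocytes, and the labels give its strain as C57BL/6J. No treatment, age, sex or genetic change is named, and the labels do not say whether the cells had been induced to differentiate. DNase-seq maps chromatin that the enzyme DNase I can cut, and 4 libraries were made from 2 biosamples, with 2 libraries each. The labels number the 2 biosamples as biological replicates 1 and 2. The authors deposited 1 list of peaks and 1 list of hotspots, which are wider regions of cutting, for each biosample. The libraries of a biosample are pooled in its lists, so no spread between libraries could be had, and no test was made.

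MMPs are zinc enzymes that are made as inactive proforms and together can degrade collagens, gelatin, laminin and proteoglycans. ADAM proteins sit in the membrane and shed the outer parts of other membrane proteins, while ADAMTS proteins are secreted and cut proteoglycans or trim procollagens. TIMPs bind the active site of these enzymes, and in fat tissue the balance between enzyme and inhibitor is known to shape the matrix that gives way as adipocytes fill with lipid.

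Each peak is a window of 150 bp with a score, which is the authors' own value for that peak. How it was calculated is not stated in the files or labels, so it is used here only as a percentile rank among the peaks of one list, and no score is set against a score of the other list. On chromosomes 1 to 19, X and Y, biosample 1 had 298212 peaks with a median score of 65 and biosample 2 had 97260 peaks with a median score of 33. Read depth was unknown. The promoters of 7 of 8 fibroblast and preadipocyte marker genes had a peak in each list, and so did 1 of 4 mature adipocyte markers, 2 of 5 of macrophages and blood, 1 of 4 of epithelium and 2 of 4 of endothelium. Over all protein-coding genes the share was 51.8%, and these marker groups are small.

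The first promoters printed are from the MMP cluster on chromosome 9, where 6 of 9 member genes carry the same pair of short motifs near a start. Of the other 3, Mmp8 and Mmp20 had a TATA match without AP-1, and Mmp27 had neither. AP-1, the factor formed by Fos and Jun proteins, binds TGAGTCA, and TATAAA is the core of the TATA box. The RefSeq promoters, build GRCm38.p6, run from 250 bases before the start to 50 bases from it onward and are printed 5′ to 3′ in the direction of the gene, with AP-1 and TATA matches in capitals. Mmp3 (stromelysin-1) lies at chr9:7445572-7445871, Mmp10 (stromelysin-2) at chr9:7502092-7502391 and Mmp13 (collagenase-3) at chr9:7272264-7272563, all on the plus strand. Mmp1b, a rodent relative of interstitial collagenase, lies at chr9:7387977-7388276 on the minus strand. These 4 had a biosample 1 peak on the printed bases.
Mmp3: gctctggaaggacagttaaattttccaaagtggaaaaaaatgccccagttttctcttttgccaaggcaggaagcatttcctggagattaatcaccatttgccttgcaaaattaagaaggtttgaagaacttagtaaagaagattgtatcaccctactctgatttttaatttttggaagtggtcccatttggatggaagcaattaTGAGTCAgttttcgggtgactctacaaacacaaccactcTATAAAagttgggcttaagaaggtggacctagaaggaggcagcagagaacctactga
Mmp10: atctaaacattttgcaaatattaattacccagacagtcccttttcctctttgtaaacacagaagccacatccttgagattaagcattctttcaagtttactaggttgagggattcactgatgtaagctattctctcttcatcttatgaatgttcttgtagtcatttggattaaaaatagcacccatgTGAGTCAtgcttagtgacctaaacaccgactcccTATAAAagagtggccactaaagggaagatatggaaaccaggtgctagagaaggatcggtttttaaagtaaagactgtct
Mmp13: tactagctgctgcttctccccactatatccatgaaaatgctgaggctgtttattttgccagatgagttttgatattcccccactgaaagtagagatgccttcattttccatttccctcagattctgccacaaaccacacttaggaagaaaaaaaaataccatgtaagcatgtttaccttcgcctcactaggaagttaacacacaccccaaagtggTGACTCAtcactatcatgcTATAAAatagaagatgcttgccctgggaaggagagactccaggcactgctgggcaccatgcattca
Mmp1b: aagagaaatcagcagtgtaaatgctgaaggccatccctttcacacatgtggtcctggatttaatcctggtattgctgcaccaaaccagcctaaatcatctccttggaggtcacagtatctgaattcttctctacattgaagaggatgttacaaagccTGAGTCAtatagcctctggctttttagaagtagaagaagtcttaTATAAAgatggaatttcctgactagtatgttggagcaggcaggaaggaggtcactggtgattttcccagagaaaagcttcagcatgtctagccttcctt
Mmp7 (matrilysin), at chr9:7691840-7692139, and the second RefSeq start of Mmp12 (macrophage elastase), at chr9:7347124-7347423, are on the plus strand. They hold the same pair and had no peak of either list on the printed bases.
Mmp7: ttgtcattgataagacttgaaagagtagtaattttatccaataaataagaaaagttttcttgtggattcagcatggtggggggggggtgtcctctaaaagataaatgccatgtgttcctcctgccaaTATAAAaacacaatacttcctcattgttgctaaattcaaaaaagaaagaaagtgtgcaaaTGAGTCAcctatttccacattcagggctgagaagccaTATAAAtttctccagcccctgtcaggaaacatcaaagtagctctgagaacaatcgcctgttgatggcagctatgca
Mmp12: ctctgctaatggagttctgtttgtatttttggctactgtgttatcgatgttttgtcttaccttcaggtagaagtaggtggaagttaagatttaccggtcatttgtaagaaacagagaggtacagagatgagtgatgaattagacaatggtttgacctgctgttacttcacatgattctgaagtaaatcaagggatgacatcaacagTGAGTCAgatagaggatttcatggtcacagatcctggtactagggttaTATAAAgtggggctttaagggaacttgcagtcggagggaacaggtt
The first base of the AP-1 match stood 46 bases before the RefSeq start in Mmp3, 63 in Mmp10, 35 in Mmp13, 93 in Mmp1b, 63 in Mmp7 and 44 in Mmp12. The AP-1 match came before the TATA match nearest to the start in all 6 promoters. The position of that TATA match differed between them. Its first base stood 7 bases before the start in Mmp3, 29 in Mmp10, 16 in Mmp13, 49 in Mmp1b and 26 in Mmp7. In Mmp12 it stood 4 bases after the start. Of these 6 promoters 4 lay under a peak, so the letters alone did not separate promoters with a peak from those without one.

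Over the RefSeq promoters of members, 53 promoters of 48 of the 78 genes, AP-1 was found on either strand in 9 (16.98%, Wilson 95% interval 9.20 to 29.2), against 5.20% of all 32851 promoters in the table. TATAAA was found on either strand in 13 (24.5%) against 13.6%. Both were present in 7 (13.2%) against 0.941%: the 6 MMP promoters above and that of Adam29, a testis-expressed ADAM. The MMP genes held 6 of the 9 AP-1 promoters and 9 of the 13 with TATAAA, out of 20 MMP promoters. The 10 ADAMTS promoters held no AP-1 match. The 6 MMP genes are neighbours and related in sequence, and are therefore not independent cases.

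Timp1 is shown because it had the strongest inhibitor promoter and held neither the strict AP-1 nor the TATA motif. Its RefSeq promoter lies at chrX:20869916-20870215 on the plus strand. Capitals mark AGGAAG, a core bound by ETS factors of the PEA3 group, and TGAGTAA, which is 1 letter away from the AP-1 motif and was looked for after the values had been seen.
Timp1: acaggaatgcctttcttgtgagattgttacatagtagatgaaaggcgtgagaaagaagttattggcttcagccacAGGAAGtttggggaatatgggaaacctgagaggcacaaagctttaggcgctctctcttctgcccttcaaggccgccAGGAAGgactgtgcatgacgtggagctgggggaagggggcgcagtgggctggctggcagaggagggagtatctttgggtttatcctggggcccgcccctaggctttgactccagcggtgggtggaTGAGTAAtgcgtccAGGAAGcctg
TGAGTAA was found in 2.68% of all RefSeq promoters on either strand, and in 1 of the 53 member promoters, that of Timp1. AGGAAG was found in 39.6% of member promoters and 35.4% of all. The strongest peak of both lists covered the same bases, chrX:20870076-20870225, where the scores were 143 for biosample 1 and 71 for biosample 2, and it held the TGAGTAA match, whose first base lay 26 bases after the start.

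A gene was counted as open when a peak of each list touched the 1000 bp on either side of any of its start sites. Of the 78 members 32 were open (41.0%, Wilson 95% interval 30.8 to 52.1, counting error only), against 51.8% of all protein-coding genes. A further 13 had a promoter peak in biosample 1 alone, where the share of all genes was 10.8%. None had one in biosample 2 alone, where the share of all genes was 0.101%, and 33 had none, where it was 37.3%. In the longer list of biosample 1, 45 members had a promoter peak (57.7% against 62.6%), and in that of biosample 2 the 32 open ones did (41.0% against 51.9%). The share differed widely between role groups. Of the 21 ADAM genes outside the well-studied somatic ones, many of them known from testis, 3 were open and 17 had no peak. Without these 21 genes, a subset taken after the values were seen, 29 of 57 members were open (50.9% against 51.8%). That closeness depended on the setting: the same 57 genes gave 20 (35.1% against 46.2%) with the stronger 50% of each list, 24 (42.1%) both within 500 bp (against 49.5%) and with the most upstream start (against 48.4%), and 35 (61.4% against 55.5%) within 2000 bp.

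**Figure D1:**
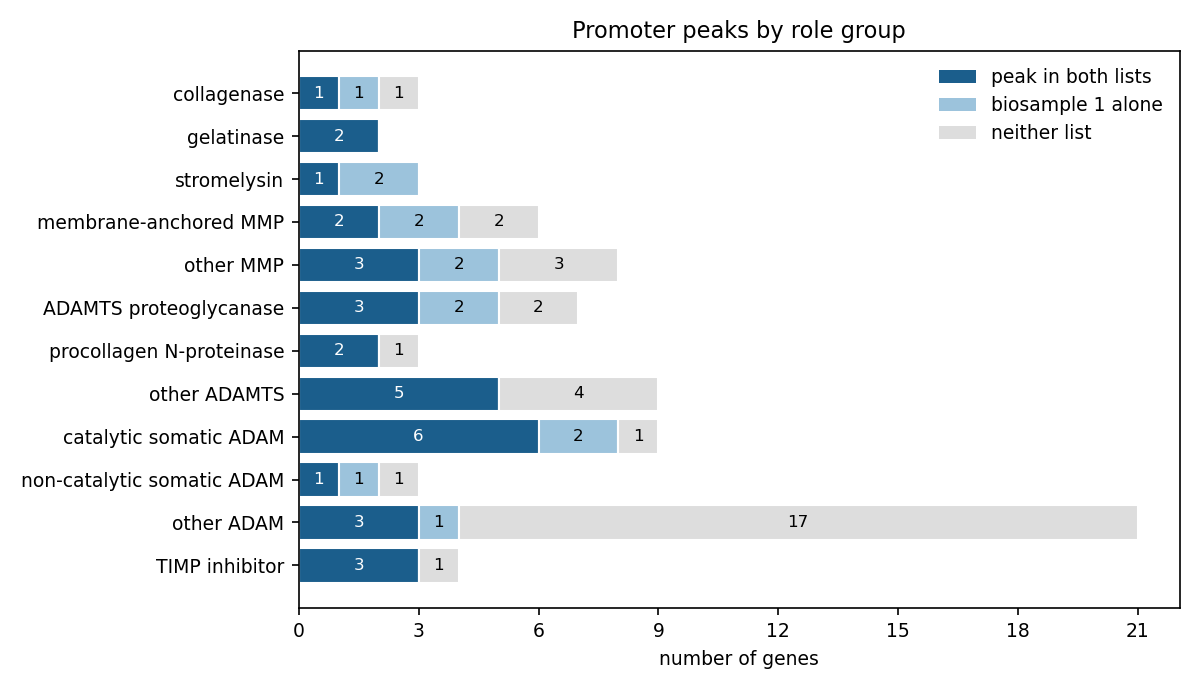
Number of member genes (x axis) whose promoter had a peak in each list, in that of biosample 1 alone or in neither, by role group (y axis). Open promoters made up 6 of 9 catalytic somatic ADAMs, 3 of 4 TIMPs and both gelatinases, and 3 of the 21 other ADAMs.

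The open members ranked lower in strength than open genes in general. In biosample 1 the median percentile of the strongest promoter peak was 91.3 over the 32 open members and 95.5 over all open genes, and in biosample 2 it was 65.6 against 86.4. The open MMP promoters ranked lowest, with medians at the percentiles 82.3 and 37.7 in biosample 1 and 2, and the TIMP promoters highest in both lists, with 97.9 and 79.1. ADAMTS promoters had medians of 91.8 and 77.0 and ADAM promoters 93.3 and 69.6. The presence of a member's peak in biosample 2 followed its rank in biosample 1: of promoters above the 90th percentile 18 of 18 were open, from the 75th to the 90th 9 of 13, from the 50th to the 75th 5 of 10 and below the 50th 0 of 4. For all genes with a biosample 1 promoter peak these shares were 99.5%, 86.8%, 40.2% and 5.08%. None of the 13 members with a peak in biosample 1 alone had a hotspot of biosample 2 at the promoter. Of all genes with a peak in biosample 1 alone, 42 of 2349 had one, so the members were near all genes here.

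**Figure D2:**
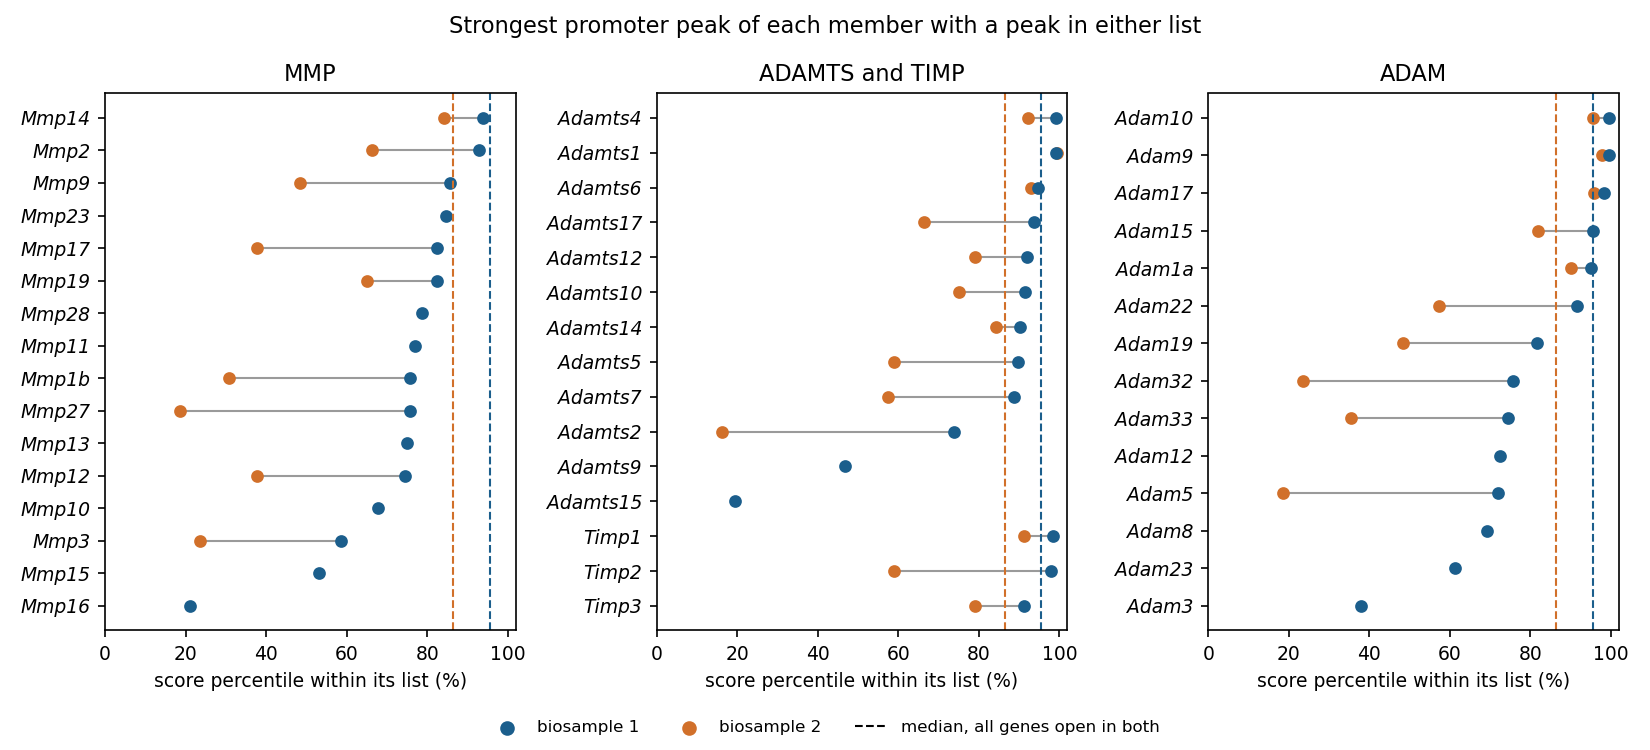
Percentile of the strongest promoter peak within its own list (x axis, %) for each of the 45 members with a promoter peak, with biosample 1 in blue and biosample 2 in orange, and dashed lines at the medians of all open genes. All MMP points sit left of the line of their own list, while Adam9, Adam10, Adam17, Adamts1, Adamts4 and Timp1 sit beyond the lines.

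Among the inhibitors, Timp1, which is secreted and lies within the neuron gene Syn1 on the opposite strand, had promoter peaks of the percentiles 98.3 in biosample 1 and 91.1 in biosample 2. Timp2, which both inhibits MMPs and helps to activate proMmp2 at the cell surface, scored 142 (97.9) in biosample 1 and 38 (59.0) in biosample 2, so that its rank was high in the first list and moderate in the second. Timp3, which binds the matrix and inhibits several ADAMs and ADAMTS enzymes, scored 126 (91.1) and 54 (79.1). Timp3 and Timp4 lie within Syn3 and Syn2 on the opposite strand. Timp4, the inhibitor best known from heart and fat, had no promoter peak in either list, although 8 shared distal peaks lay in the 50 kb on either side of its gene body, and 0 within it.

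The gelatinases, which cut denatured collagen and basement membrane collagen, were both open. Mmp2 scored 130 (92.9) in biosample 1 and 43 (66.4) in biosample 2, with both peaks centred 59 bp after the start. Mmp9 scored 115 (85.6) and 32 (48.3), with peaks centred 489 and 509 bp before the nearest of its starts. The strongest MMP promoter was that of Mmp14, the membrane collagenase that activates proMmp2: 132 (93.8) and 60 (84.2). Mmp14 lies on chromosome 14 at chr14:54431612-54445364, plus strand. The other open membrane-anchored enzyme, Mmp17, held by a lipid anchor, scored 109 (82.3) and 27 (37.7). Mmp15 and Mmp16 had a peak in biosample 1 alone, with scores of 68 (53.2) and 44 (21.04), centred 638 and 1041 bp before the start. Mmp24 and Mmp25 had none.

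Of the collagenases, Mmp1b was open at 98 (75.7) and 24 (30.8). Mmp13 had a peak in biosample 1 alone at its start, with a score of 97 (75.1), and Mmp8, known from neutrophils, had none. Of the stromelysins, which cut many matrix proteins and can activate other proMMPs, Mmp3 was open with the lowest biosample 1 score of any open member, 74 (58.6), and 21 (23.5) in biosample 2. Mmp10 at 86 (67.8) and Mmp11 at 100 (77.0) had a peak in biosample 1 alone, and the Mmp11 peak also lay within 1000 bp of a start of Chchd10. The collagenase and stromelysin promoters thus ranked below the gelatinase promoters in both lists where both had a peak.

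Among the remaining MMPs, Mmp19 was open at 109 (82.3) and 42 (64.9). The open calls of Mmp12 and Mmp27 came from peaks at the edge of the window, centred 1051 bp before and 1027 bp after the start in biosample 1, with scores of 96 and 98 there and 27 and 19 in biosample 2. Mmp23, at 113 (84.5), and Mmp28, at 103 (78.8), had promoter peaks in biosample 1 alone. Mmp7, Mmp20, the enamel protease, and Mmp21 had none.

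Among the ADAMTS proteoglycanases, which cut aggrecan and versican, Adamts1 and Adamts4 had the highest ranks. Adamts1, on chromosome 16, had 6 promoter peaks in each list, with top scores of 146 (99.3) in biosample 1 and 101 (99.3) in biosample 2. These top peaks lay at different start sites and did not meet: that of biosample 1 was centred 17 bp before the upstream start, and that of biosample 2 611 bp after the other annotated start. At the upstream start the top score of biosample 2 was 80 (95.1). Adamts4 scored 146 (99.3) and 73 (92.1). Adamts5, the main aggrecanase of mouse cartilage and the neighbour of Adamts1, scored 123 (89.6) and 38 (59.0), centred 678 bp after the start. Adamts9, at 62 (46.9), and Adamts15, at 43 (19.4), had a peak in biosample 1 alone. Adamts8 and Adamts20 had none.

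The procollagen N-proteinases remove the N-terminal propeptides of fibrillar collagens. Adamts14 scored 124 (90.1) and 60 (84.2), with the strongest peaks 912 bp after the start. Adamts2 scored 95 (73.8) and 18 (16.2), and Adamts3 had no promoter peak. Of the other ADAMTS genes, Adamts6 scored 134 (94.7) and 75 (93.0), from a peak centred 843 bp before the start. Adamts12 scored 128 (92.0) and 54 (79.1), Adamts10, a gene of fibrillin-rich microfibrils, 127 (91.5) and 50 (74.98), Adamts17 132 (93.8) and 43 (66.4), and Adamts7 121 (88.7) and 37 (57.3). Adamts13, which cuts von Willebrand factor in plasma, Adamts16, Adamts18 and Adamts19 had no promoter peak.

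Of the ADAM sheddases, 6 of 9 catalytic somatic genes were open. Adam10, which sheds Notch and cadherins, scored 147 (99.5) and 81 (95.4). Adam9 scored 147 (99.5) and 90 (97.8), from a peak also within 1000 bp of a start of Tm2d2. Adam17, which releases tumour necrosis factor and ligands of the EGF receptor, scored 143 (98.3) and 82 (95.8). Adam15 scored 136 (95.5) and 57 (81.8), centred 989 bp after a start, and Adam19 108 (81.7) and 32 (48.3). Adam33 scored 96 (74.5) and 26 (35.4) from peaks centred 23 bp before and 577 bp after the same internal start. It was the one open member of 32 whose strongest biosample 1 peak met no biosample 2 peak. Adam12, a gene of mesenchymal and fusing muscle cells, at 93 (72.6), and Adam8, at 88 (69.2), had a peak in biosample 1 alone, and Adam28, known from lymphocytes, had none.

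Of the ADAMs without a working protease site, which act in adhesion and as receptors, Adam22 was open at 127 (91.5) and 37 (57.3) through an internal start, with no peak at its 3 most upstream starts, Adam23 had a peak in biosample 1 alone at 77 (61.1) and Adam11 had none. The open promoters among the other ADAMs were those of Adam1a, Adam32 and Adam5. Adam1a scored 135 (95.1) and 69 (90.1) from a peak within 1000 bp of a start of Mapkapk5, which overlaps it. Adam32 scored 98 (75.7) and 21 (23.5) and Adam5 92 (71.9) and 19 (18.6). Adam3, which in sperm is needed for egg binding, had a peak of 55 (38.0) in biosample 1 alone.

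Promoter base composition was set beside these counts, since CpG-rich promoters are open in most cell types. A promoter was counted as CpG-rich when the observed over expected CpG ratio in 1000 bp around the most upstream start was at least 0.6. That held for 28 of the 78 members (35.9%) against 46.6% of all genes. Of CpG-rich promoters 15 of 28 members (53.6%) were open against 80.2% of all CpG-rich genes, and of CpG-poor promoters 17 of 50 (34.0%) against 27.1%. The MMP and ADAMTS genes had the reverse order of all genes, with 2 of 6 CpG-rich and 7 of 16 CpG-poor MMP promoters open, and 6 of 13 and 4 of 6 ADAMTS promoters. The CpG ratio was taken at the most upstream start, while a gene could be open at any start. Mmp9, Mmp27 and Adam33, all CpG-poor, and Adam22 and Timp3, both CpG-rich, were open only through another start. The shares of 53.6% and 34.0% include these genes. Counted at the most upstream start alone, none of them was open, and the MMP genes no longer had the reverse order. Adamts3, Adamts8, Adamts18, Adamts19 and Adamts20 were CpG-rich with no peak in either list, whereas Adamts4, Mmp19 and Timp1 were CpG-poor and open. The groups are small, and these shares are descriptions.

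**Figure D3:**
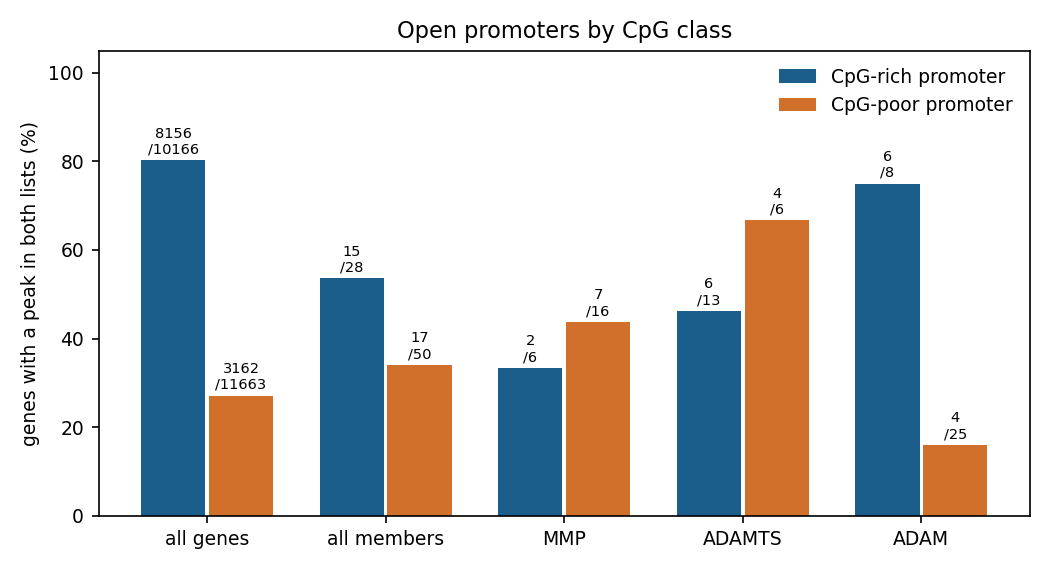
Share of genes open in both lists (y axis, %) among CpG-rich (blue) and CpG-poor (orange) promoters for all genes, all members and 3 subfamilies, with counts above the bars. Among all genes the CpG-rich bar is higher (80.2% against 27.1%), while among MMP and ADAMTS genes it is the lower one. The MMP order depends on Mmp9 and Mmp27, which were not open at their most upstream start.

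Distal peaks, over 1000 bp from every protein-coding start site, were counted in each gene body and the 50 kb on either side. The median over the members was 3.93 shared distal peaks per 100 kb against 3.63 over all protein-coding genes, where shared means that a biosample 1 peak met a biosample 2 peak by at least 1 bp. TIMP genes had a median of 7.65, MMP genes 4.64, ADAMTS genes 4.54 and ADAM genes 2.20, with 1.35 in the other ADAMs. Hotspots gave medians of 13.5 per 100 kb in biosample 1 and 5.46 in biosample 2, against 14.8 and 5.71 over all genes. Counting biosample 1 peaks alone, members lay below all genes (12.4 against 13.5 per 100 kb), so the direction of the small difference in shared peaks depends on the list.

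The windows of the members held 1585 distal peaks of biosample 1, of which 470 (29.7%, Wilson 95% interval 27.5 to 31.9) met a biosample 2 peak, against 27.9% over the chromosomes. From the other side, 473 of 495 biosample 2 peaks (95.6%) met one of biosample 1, against 94.7%. By place, 276 of the 470 shared peaks lay in introns, 156 between genes and 38 in exons. The windows contain the gene bodies, and the same split was not counted over the chromosomes, so it is not read as a trait of the members. A member was the gene with the nearest start for 272 of the 470 shared peaks, so that many of these peaks lie closer to another gene.

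**Figure D4:**
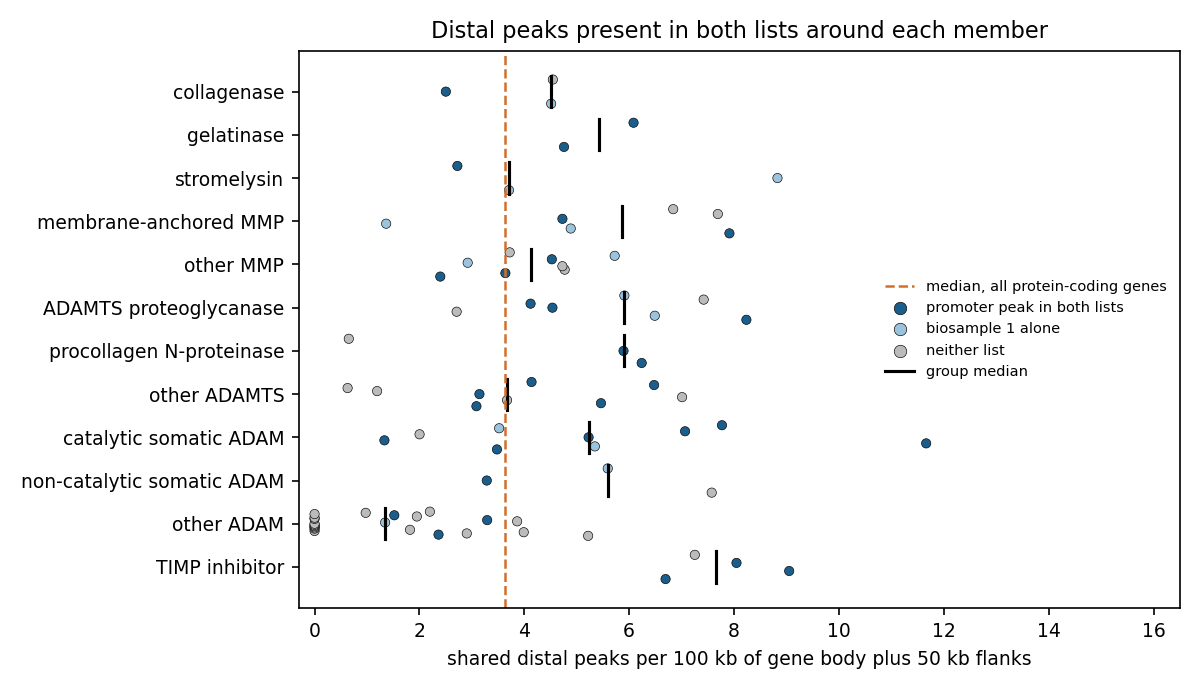
Shared distal peaks per 100 kb of gene body plus 50 kb flanks (x axis) for each member by role group (y axis), coloured by promoter state, with group medians as bars and the median of all protein-coding genes, 3.63, as a dashed line. The TIMP genes all lie right of the line, and 9 of the other ADAMs lie at 0.

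Promoter state and distal peaks did not run together for every gene. Members with a peak in biosample 1 alone had a median of 4.89 shared distal peaks per 100 kb and open members 4.63, against 2.20 in those with none. For all genes these medians were 3.97, 4.33 and 1.90. The most shared distal peaks were found at Adam12 (24), Adamts12 (21), Adamts6 (20), Adamts2 (18), Adamts9 (16), Adamts16 (15), Adam23 (14) and Timp2 (14), counts that are not scaled for the length of the gene. Of these 8 genes, the promoters of Adam12, Adam23 and Adamts9 had a peak in the biosample 1 list alone and that of Adamts16 had none. Around Adamts16 the 15 shared peaks were among 68 distal peaks of biosample 1. Shared peaks are counted in biosample 1, and more than 1 can meet the same biosample 2 peak. The 21 around Adamts12 stood beside only 19 distal biosample 2 peaks, so its place above Adamts6 rests on this way of counting.

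The strongest shared distal peak of all member windows lay in an exon of Mmp14, 11.4 kb after its start at chr14:54443796-54443945, with scores of 149 (99.9) in biosample 1 and 98 (99.0) in biosample 2. An intron of Adamts16 held the next, 62.4 kb after the start, with scores of 148 (99.7) and 98 (99.0), although that gene had no promoter peak. Timp2 had one in an intron, with scores of 150, the list's maximum, and 90 (97.8), which lay nearer to a start of Cep295nl. The remaining 7 of the 10 strongest scored 142 to 147 and 84 to 93. They lay before Adam12, Mmp19 and Adamts14, in introns of Adamts6, of Timp3 (which is also an intron of Syn3) and of Smarcb1 near Mmp11, and in an exon of Tnfrsf12a, 30.6 kb before Mmp25.

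An AP-1 match lay within the 200 bp around the centre of 3 of these 10 peaks, those by Adam12, Mmp11 and Mmp19, and 2 are printed because they lie between genes with the member as nearest gene. The window before Adam12 is chr7:134261411-134261610, 29.4 kb from the start, and that before Mmp19 is chr10:128779571-128779770, 11.2 kb from the start. Both are plus strand, GRCm38.p6, with AP-1 matches in capitals. In each the match lies in the outer bases of the window, outside the 150 bp of the biosample 1 peak.
Adam12 distal: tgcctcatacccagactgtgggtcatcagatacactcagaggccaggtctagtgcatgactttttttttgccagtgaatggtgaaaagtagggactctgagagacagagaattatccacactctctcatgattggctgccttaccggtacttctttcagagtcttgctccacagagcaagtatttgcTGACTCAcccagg
Mmp19 distal: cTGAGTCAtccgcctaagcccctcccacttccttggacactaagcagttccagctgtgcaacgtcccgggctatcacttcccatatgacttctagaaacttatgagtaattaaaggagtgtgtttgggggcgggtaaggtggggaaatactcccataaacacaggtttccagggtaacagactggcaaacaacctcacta
The scores were 144 and 93 at the Adam12 site and 143 and 89 at the Mmp19 site, in biosample 1 and 2.

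Over all 470 shared distal peaks of members, AP-1 was found in 134 (28.5%, Wilson 95% interval 24.6 to 32.8) against 29.7% of shared distal peaks over the chromosomes, so the members' share was near that of all such peaks. It was 22.1% around MMP genes (23 of 104, interval 15.2 to 31.0) and 32.3% around ADAM genes (50 of 155, interval 25.4 to 40.0). Around ADAMTS genes it was 29.4% (interval 23.1 to 36.7) and around TIMP genes 26.8% (interval 15.7 to 41.9). Each of these intervals holds the 29.7% over the chromosomes. The other motifs, searched on both strands, were AGGAAG for PEA3 and other ETS factors in 24.7% against 26.1%, CATTCC for TEAD in 17.9% against 18.6% and TGTGGT for RUNX in 24.0% against 23.3%. TTGCNNAA for C/EBP, a family with a known part in adipocyte formation, was found in 9.79% against 10.9%, and GGGCGG for SP and KLF factors in 5.32% against 5.54%. At the 54 shared promoter peaks of members AP-1 was found in 8 (14.8%, interval 7.70 to 26.6) against 6.47% of all shared promoter peaks. Some of these 54 peaks belong to the same gene or to the MMP cluster. They are therefore not independent cases, and the interval covers counting error only.

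Several members lie in clusters of related genes, so that their windows overlap and their values are not independent. The MMP cluster at chr9:7272514-7699585 holds 9 members in 427 kb: Mmp13, Mmp12, Mmp1b, Mmp3, Mmp10, Mmp8, Mmp27, Mmp20 and Mmp7. Across it biosample 1 had 40 peaks, 17 of them shared (30.4% of all biosample 1 peaks were shared), and biosample 2 had 17 peaks. Of its genes 4 were open, 2 had peaks at the promoter in the biosample 1 list alone and 3 in neither. The strongest peak of the cluster in either list was not at a promoter. It lay 23.9 kb after the start of Mmp27 at chr9:7595296-7595445, with a score of 137 (96.0) in biosample 1 and of 72 (91.6) in biosample 2. At Mmp13 the shared site closest to the start lay 2.24 kb before it, scored 99 (76.4) in biosample 1. The peak at the start itself, 97 (75.1), had no biosample 2 peak.

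**Figure D5:**
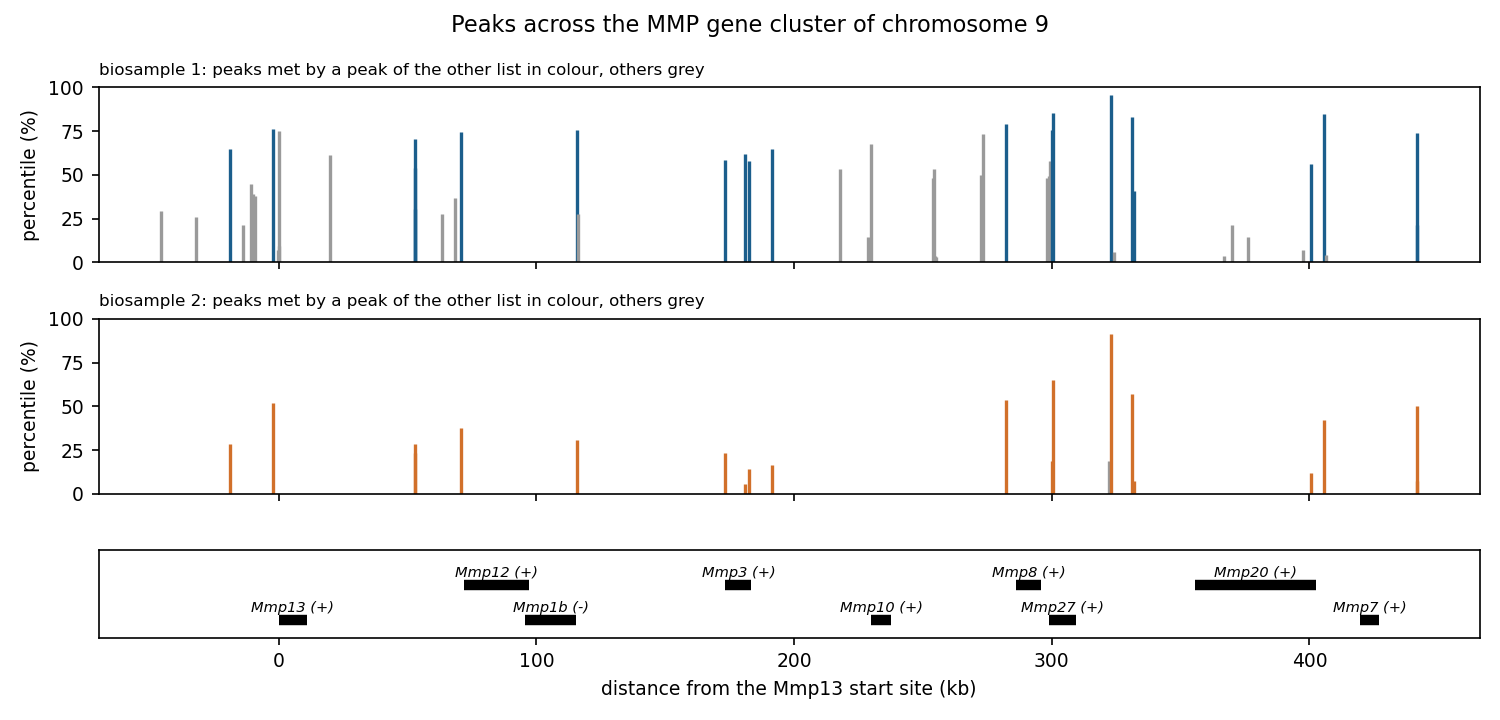
Percentile of each peak within its list (y axis, %) along the MMP cluster, by distance from the Mmp13 start site (x axis, kb), for biosample 1 (top) and biosample 2 (middle), with the genes and their strands below. The highest line in both lists stands 323 kb from the Mmp13 start, between Mmp27 and Mmp20.

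On chromosome 8, Adam9 lies next to the testis-type genes Adam18, Adam3, Adam5 and Adam32. Adam9 had 28.2 biosample 1 peaks per 100 kb of its body and the 347 kb of its neighbours had 8.66. Further along that chromosome the 152 kb from Adam24 to Adam39, with 4 members, held 1 biosample 1 peak and 0 biosample 2 peaks, and the 190 kb from Adam26b to Adam34, with 3 members, held 0 in both lists. By contrast, the 108 kb of Adamts1 and Adamts5 on chromosome 16 had 31 peaks in biosample 1. Of these 11 were shared, where 30.4% of all biosample 1 peaks were. The 64.7 kb of Adamts15 and Adamts8 on chromosome 9 had 19 with 5 shared. These genes are related copies of one another, and the labels do not say how reads that match several copies were treated.

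Genes of the same pathways outside the families were read in the same way, from a list of 43. Of these 25 were open (58.1% against 51.8% of all genes), 2 had one in the biosample 1 list alone and 16 in neither. Among those with the highest mean percentile were Plat, an activator of plasminogen, Thbs2, a matrix protein that takes part in MMP clearance, Adamtsl4, an ADAMTS-like protein without protease domain, Lrp1, the receptor that takes up many proteases, and Bsg, known as an inducer of MMPs. Thbs2 scored 146 (99.3) in biosample 1 and 96 (98.8) in biosample 2. Adamtsl4 scored 141 (97.5) and 91 (98.0), Plat 140 (97.2) and 84 (96.4), Lrp1 143 (98.3) and 77 (94.0), and Bsg 141 (97.5) and 79 (94.8).

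By group, 5 of 8 activators of proenzymes were open, among them Furin, the proprotein convertase that activates membrane MMPs and ADAMs, and not Plg, which codes for plasminogen and is known from liver. Of inhibitors and clearance genes 5 of 9 were open, including Reck, a membrane-anchored MMP inhibitor, at 111 and 25. Of the tetraspanins and inactive rhomboids that carry Adam10 and Adam17 to the surface 6 of 8 were open, and Tspan15 had a peak in biosample 1 alone at 47 (25.9). Of other matrix enzymes 5 of 12 were open, and Fap, a serine protease of activated fibroblasts, had a peak in biosample 1 alone at 76 (60.3). Of ADAMTS-like genes 3 of 5 were open.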

How the data were processed

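Peaks and hotspots of 3T3-L1 DNase-seq (4 libraries, 2 biosamples, grouped by biological replicate number) were used. Per the file headers and labels, each list was made in mm10 from 1 alignment per biosample, with its libraries pooled. Aligner and peak caller: not given in the sources used here. Every library carries a biological replicate number, shared within its biosample, and a technical replicate number, which differs within it. Beyond these numbers, nothing describes how the cultures of the 2 biosamples were kept apart.

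Deposited peaks carry a score of the authors, a whole number up to 150. Deposited hotspots carry a −log10 q value from 1.30 to a cap of 100, which 49.4% and 42.8% of them reached in biosample 1 and 2, so they were counted and not ranked. Depth was unknown, and intervals (95% Wilson) cover counting error only.

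GENCODE M21 gave 21829 protein-coding genes and 54355 start sites on chromosomes 1 to 19, X and Y. All intervals lay within the GRCm38.p6 chromosomes. Of several peaks near a start the highest score was taken, with tied scores given the mean rank. Overlap and assignment code (Python 3.11.15, pandas 2.3.3, pysam 0.24.0) was tested on simulated data.

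Members and lists (roles, pathway partners, markers) were chosen with earlier results of these data known. Named were all TIMP genes, the 6 strongest promoters of each subfamily, members with a peak in 1 list alone, members without a peak in role groups of up to 10, the 8 members with the most shared distal peaks, the 10 strongest shared distal peaks, and of the partners the 6 strongest and those in 1 list alone. Not every result under this rule is reported here. Other genes named, and the printed sequences, were picked after their values were seen. Alternatives were other windows, flanks, overlaps, CpG thresholds and list subsets.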

Additional observations from a re-analysis of the deposited data

How the results depend on the processing

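Of 50 values under alternatives, 31 moved by less than their interval or spread and 19 by more. The share of open members was 41.0%; it was 26.9% (21 genes) with the stronger 50% of each list and 57.7% from biosample 1 alone, and below the share of all genes under every alternative run. Windows of 500 bp and the most upstream start each left 27 open members, and 2000 bp gave 40, adding Mmp11, Mmp23, Adam12 and 5 others. Mmp12, Mmp27, Adamts5, Adam22 and Adam33 were no longer open within 500 bp, and with the most upstream start Mmp9, Timp3, Mmp27, Adam22 and Adam33 were not. Shared distal peaks per 100 kb went from 3.93 to 1.91 with the stronger 50%, and biosample 1 alone gave 12.4. With the biosample 1 list shortened to the length of the other, the shared shares were 73.2% for biosample 1 (now below the 76.9% over the chromosomes) and 77.4% for biosample 2, and with 50% overlap that of biosample 2 was 91.7%. Motif shares of distal sites moved with the window: at 400 bp AP-1 33.4% (against 33.1% of all sites, the reverse order of the 200 bp window), PEA3/ETS 44.5%, TEAD 27.4%, RUNX 34.7%, C/EBP 18.9% and SP/KLF 9.15%; at 150 bp PEA3/ETS 19.8%, RUNX 19.8% and SP/KLF 3.62%; in the stronger 50% of sites PEA3/ETS 28.9%, TEAD 21.7% and SP/KLF 8.09%. A longer window or list holds more matches or peaks by construction, and the cause of the other moves was not tested. With 1 list per biosample and unknown depth, a missing peak in biosample 2 cannot be told apart from shallower coverage. No paired analysis was possible because no result comes from a test.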
